A study of Mus musculus with 12 samples.

Results

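The differentiation of preadipocytes without Acly into adipocytes was described from 6 of the 12 RNA sequencing libraries of the series, chosen by the genotype and stage that the sample labels give. They were 3 libraries of Acly-/- preadipocytes, harvested on day 0, and 3 of Acly-/- adipocytes, harvested on day 4. The other 6 libraries came from Aclyf/f cells at the same stages, 3 a stage, and were used only where the change in both genotypes is compared. In the control genotype, Aclyf/f, loxP sites flank Acly, while cells labelled Acly-/- carry its deletion, of an extent not given in the sources used here. Cells of both genotypes were SV40-immortalised preadipocytes from adipose tissue of C57Bl/6 mice, so the viral immortalisation is shared by every group. They were grown to confluence and then given a standard adipogenic cocktail with rosiglitazone, a drug that activates PPAR gamma. No group was kept for 4 days without the cocktail, so time in culture and induction cannot be told apart. The sources used here do not say how Acly was deleted, whether a line was a clone or a pool, or whether libraries came from separate cultures, so each p-value speaks only of the spread between libraries.

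ATP citrate lyase, the product of Acly, cleaves citrate that leaves mitochondria and yields acetyl-CoA in the cytosol and nucleus. That acetyl-CoA feeds fatty acid and cholesterol synthesis and the acetylation of histones and other proteins. In textbook adipogenesis, C/EBP beta and C/EBP delta come on early and induce PPAR gamma and C/EBP alpha, which then switch on genes for fatty acid uptake, lipid droplets, insulin-sensitive glucose transport and hormones such as adiponectin. At the same time fibroblast features such as collagen, contractile proteins and growth signals are lowered.

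Expression levels are in FPKM, the authors' deposited unit, in which fragment numbers are divided by transcript length and library size. Group values are mean ± SD over n = 3 libraries. The table holds no counts, and depth was estimated from the steps of low values at about 7.08 to 13.5 (in units of 1e+06 fragments) per library, or 7.08 to 12.9 in the 6 Acly-/- libraries. At such depth a gene under 0.3 FPKM rests on few fragments, so no fold is given where the lower group lies under that level. Across genes, log2 values correlated at 0.987 to 0.991 between Acly-/- libraries of a stage (6 pairs) and at 0.90 to 0.908 between stages (9 pairs). Acly-/- preadipocyte library 3 stood apart, since a single small nucleolar RNA, Snord12, held 8.90% of its FPKM sum. Without that library 7056 genes were called, against 7232 with it.

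No change of Acly itself was called in Acly-/- cells. It read 11.9, 12.5 and 11.9 FPKM on day 0 and 13.2, 12.8 and 11 FPKM on day 4 (libraries 1 to 3), with ranges that overlap (log2 fold change 0.02, SE 0.076, limma adjusted p = 0.795). In the control cells it went from 86.9 ± 2.33 to 754 ± 52.5 FPKM, so all 6 libraries labelled Acly-/- lay below all 6 labelled Aclyf/f. These values cover the whole gene (chromosome 11, 100476352 to 100528000, mm10), and with the lost exons unknown here, what remains of the transcript is counted too. Acss2, the cytosolic and nuclear enzyme that makes acetyl-CoA from acetate, read 14.2, 17.3 and 17.7 FPKM on day 0 and 79, 72 and 61.5 FPKM on day 4. All 3 day 4 libraries lay above all 3 of day 0, a 4.32-fold rise of the mean (log2 fold change 2.05, SE 0.10, limma adjusted p = 1e-09). Acss3, a mitochondrial enzyme that activates propionate and acetate, went from 0.144 ± 0.0669 to 21.7 ± 4.04 FPKM. Of 14 genes tested on a list of 18 that make or use acetyl-CoA, 8 rose and 3 fell, Acat2 (log2 fold change -0.71), Acacb and Hmgcs1. The last 2 were small changes that are given below with their own pathways. Across the list the change was called as lower without Acly in 10 of 14 and higher in 0, beside 26.4% and 23.7% of all genes tested.

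The first comparison asked what happens to gene expression as cells without Acly are taken through differentiation. Most tested genes of mature adipocytes, lipid droplets and mitochondrial oxidation rose, while most tested collagen, contractile, cell cycle and interferon-stimulated genes fell, as counted list by list below. The 11777 of 24341 genes that reached 1 FPKM in 3 or more libraries were tested with limma on log2(FPKM + 1). A gene was called when its p, adjusted by Benjamini-Hochberg, was under 0.05. Log2 fold changes stay on the log2(FPKM + 1) scale, where low genes appear to change less, and folds are ratios of mean FPKM. In all, 7232 genes were called, 61.4% of those tested. Of these 3583 rose (30.4%) and 3649 fell (31%), and 1535 genes (13%) changed by at least 1 on the log2 scale, 727 upward (6.17%) and 808 downward (6.86%). The 3 libraries of a stage lay beyond all 3 of the other in 64.6% of genes tested. With Acly 72.5% of genes were called, 4301 as rises and 4236 as falls. With so many genes called, the counts for each gene list below are read beside these shares and beside the median of 0.0037 over all genes tested. Some members, such as Cidec and Slc2a4, lay under 1 FPKM in every day 0 library and passed the filter only through day 4. Others, such as Wnt10b, passed only through day 0. For such members the filter all but fixed the direction, so they lend a count little weight.

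**Figure D1:**
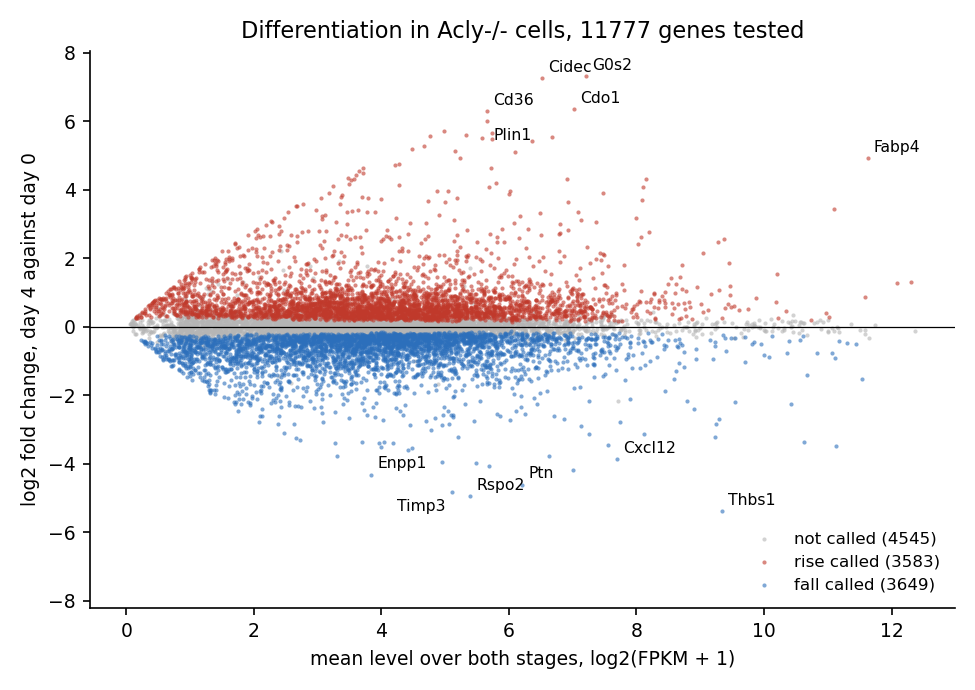
Log2 fold change from day 0 to day 4 in Acly-/- cells (vertical axis) against the mean level over both stages as log2(FPKM + 1) (horizontal axis), 1 point per gene tested. The 3583 genes called as rises and 3649 called as falls are coloured, and the largest changes reach 7.31 for G0s2 and -5.39 for Thbs1.

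The 12 largest rises by log2 fold change among genes of at least 5 FPKM on day 4 included lipid droplet and fatty acid uptake genes. G0s2, which inhibits the main triglyceride lipase ATGL, read 0.529, 0.771 and 1.28 FPKM on day 0 and 295, 250.1 and 333 FPKM on day 4. Every day 4 library exceeded every day 0 library by a wide margin, and the mean rose 341-fold (log2 fold change 7.31, SE 0.15, limma adjusted p = 1.44e-13). Cidec, which fuses lipid droplets into larger ones, read 0.349, 0.01 and 0.234 FPKM on day 0 and 199.7, 172 and 170.3 FPKM on day 4 (log2 fold change 7.25). In Aclyf/f cells Cidec reached 448 ± 6.68 FPKM on day 4. Plin1 (chromosome 7, 79721164 to 79732776), the coat protein of adipocyte lipid droplets, read 0.422, 0.309 and 0.977 FPKM and then 105, 91.7 and 98.1 FPKM, a 173-fold rise. Cd36, a fatty acid receptor, went from 0.284 ± 0.0893 to 98.9 ± 8.97 FPKM. With Acly it went from 0.876 ± 0.12 to 136 ± 21.3 FPKM.

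Large rises were also seen in enzymes of sulfur, steroid and retinoid metabolism and in secreted proteins. Cdo1, which oxidises cysteine, went from 2.14 ± 0.408 to 255 ± 11.1 FPKM, 119-fold. The sulfotransferase gene Sult1a1 went from 0.182 ± 0.0344 to 61 ± 4.19 FPKM. Hsd11b1, which regenerates active glucocorticoid, rose 76.7-fold to 103 ± 10.1 FPKM, and Aldh1a1, a retinaldehyde dehydrogenase, rose 119-fold to 77.8 ± 2.54 FPKM. Car5b, a mitochondrial carbonic anhydrase, rose 88.3-fold to 92.8 ± 4.76 FPKM. Complement C3, which adipocytes secrete, rose 93.6-fold to 104 ± 8.61 FPKM, and the protease inhibitor gene Serpina3n went from 0.12 ± 0.0757 to 52.3 ± 2.53 FPKM. The remaining gene among the 12 largest rises was Rpph1, the RNA part of ribonuclease P, which has no poly(A) tail and read 1.14, 2.42 and 3.21 FPKM and then 222, 336 and 40.6 FPKM. In Aclyf/f libraries it read 11.4, 4.08 and 94.9 FPKM on day 0 and 7.2, 1.36 and 6.96 FPKM on day 4, so its spread within a group was wide.

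The 12 largest falls were mostly in secreted matrix and signalling genes. Thbs1 (chromosome 2, 118111922 to 118127133), a matricellular protein that activates TGF-beta, read 1203, 1400.0 and 1194 FPKM on day 0 and 28, 33.6 and 26.4 FPKM on day 4. The groups lie far apart, with a 43.2-fold lower mean on day 4 (log2 fold change -5.39, SE 0.10, limma adjusted p = 6.3e-14). Rspo2, a secreted amplifier of Wnt signalling, read 82, 76.1 and 82.1 FPKM and then 1.41, 1.94 and 1.59 FPKM, 48.7-fold lower. Timp3, an inhibitor of metalloproteinases, fell 49.4-fold from 65.3 ± 10.7 to 1.32 ± 0.0389 FPKM. The growth factor pleiotrophin, Ptn, fell 29.3-fold to 4.84 ± 0.856 FPKM, and Enpp1, an ectoenzyme that makes pyrophosphate, fell 72.1-fold to 0.364 ± 0.0654 FPKM. The network collagen gene Col8a1, the small proteoglycan osteomodulin, Omd, and the calcium-binding matrix protein gene Smoc2 stood at 96.2 ± 11.3, 83.4 ± 4.47 and 17.4 ± 2.05 FPKM on day 0. On day 4 they read 4.79 ± 0.687, 4.35 ± 0.306 and 0.336 ± 0.0497 FPKM. Il1rl1, the interleukin-33 receptor gene, fell 20.3-fold from 57.2 ± 6.77 FPKM, and osteopontin, Spp1, fell 14.7-fold from 183 ± 14.1 FPKM. The chemokine genes Ccl2 and Cxcl12, which recruit monocytes and hold progenitor cells in their niches, also fell and are given with the inflammatory genes below.

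Adipogenic transcription factors rose in 14 of 18 tested (20 on the list) and fell in 2, with a median log2 fold change of 1.32. Pparg (chromosome 6, 115360951 to 115490401), the nuclear receptor that drives adipogenesis, read 36.4, 33.9 and 35.3 FPKM on day 0 and 151, 132 and 159 FPKM on day 4. The stages do not overlap, and the mean rose 4.19-fold (log2 fold change 2.03, SE 0.083, limma adjusted p = 1.49e-10). Cebpa (chromosome 7, 35119293 to 35121931), its partner, read 13, 10.4 and 15 FPKM and then 69.1, 67.8 and 91.2 FPKM, a 5.93-fold rise (log2 fold change 2.48, SE 0.14, adjusted p = 5.01e-09). In Aclyf/f cells Pparg went from 47.3 ± 4.75 to 161 ± 1.18 FPKM and Cebpa from 30.3 ± 3.39 to 135 ± 17.3 FPKM. The change of neither gene was called as different between genotypes in the main comparison. The difference in log2 fold change was 0.28 for Pparg (95% interval 0.03 to 0.54, adjusted p = 0.0592) and 0.37 for Cebpa (-0.07 to 0.80, adjusted p = 0.148). For Pparg it was called without Acly-/- adipocyte library 2 (0.0203) or Aclyf/f preadipocyte library 3 (0.0439), and after quantile normalization (0.0239).

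Other regulators moved by different amounts. Klf15, a regulator of glucose and amino acid metabolism genes, rose 21.1-fold to 54 ± 2.63 FPKM. Nr1h3, which encodes the oxysterol receptor LXR alpha, rose 23-fold to 28.7 ± 1.27 FPKM. The early factor gene Cebpd went from 2.92 ± 0.969 to 48.3 ± 1.88 FPKM, while its relative Cebpb read 30.9, 33.9 and 50.2 FPKM on day 0 and 37.1, 43.4 and 59.8 FPKM on day 4. The Cebpb ranges overlap and no change was called (log2 fold change 0.28, limma adjusted p = 0.251, though 0.0146 with the replicate number as a block in Acly-/- libraries alone). Srebf1, the gene of the lipogenic factor SREBP1, read 44.4, 46.1 and 60.4 FPKM and then 112, 105 and 102 FPKM, a 2.11-fold rise. Mlxipl, which encodes the glucose-responsive factor ChREBP, was near the detection floor on day 0 and read 1.89, 2.26 and 2.07 FPKM on day 4. The members that fell were Klf4 (log2 fold change -0.44) and Stat5b (-0.36). Among genes known to hold back adipogenesis, 9 of 13 tested (16 on the list) fell and 3 rose, with a median of -1.01. The Wnt ligand gene Wnt10b read 3.81, 4.64 and 5.69 FPKM on day 0 and was at or near the floor of 0.01 FPKM on day 4 (0.0517, 0.01 and 0.01 FPKM). Sox9, a factor of cartilage and progenitor cells, fell 10.3-fold, and Klf2 5.46-fold. The rises were in Ddit3, which encodes CHOP and is counted with stress genes below, in Foxo1 (log2 fold change 0.67) and in Twist2 (0.42, adjusted p = 0.0295). The call of Twist2 ended without Acly-/- preadipocyte library 1 or 2 or Acly-/- adipocyte library 2 or 3 (adjusted p = 0.084 to 0.142). Dlk1, the classical preadipocyte gene Pref-1, was too low to be tested in these cells, at 0.321 ± 0.0989 FPKM on day 0.

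Mature adipocyte genes rose in 27 of 31 tested (35 on the list) and fell in 1, with a median log2 fold change of 2.67. Members such as Cidec, Plin1 and Slc2a4 lay under 1 FPKM in every day 0 library, so the filter favoured their rise. The count is therefore no test of the adipocyte label. The change was called as lower without Acly in 23 members and higher in 2, beside 26.4% and 23.7% of all genes tested. Fabp4 (chromosome 3, 10204343 to 10208576), the fatty acid binding protein of fat cells, read 224, 191 and 187 FPKM on day 0 and 6278, 5343 and 6718 FPKM on day 4, 30.4-fold higher. Adipoq (chromosome 16, 23146536 to 23157968), the adiponectin gene, read 2.85, 3.68 and 2.43 FPKM and then 59.5, 60.7 and 62 FPKM. Its mean rose 20.3-fold without Acly (log2 fold change 3.96, SE 0.10), and in Aclyf/f cells from 3.13 ± 0.438 to 544 ± 7.05 FPKM. The rise was thus smaller without Acly by 3.08 on the log2 scale (SE 0.15, adjusted p of the difference = 4.67e-09). Lpl, the lipase that frees fatty acids from lipoproteins, was already at 425, 463 and 399.7 FPKM on day 0 and reached 1038, 879 and 1037 FPKM, 2.29-fold. Slc2a4, the gene of the insulin-regulated transporter GLUT4, went from 0.0336, 0.0986 and 0.0541 FPKM to 12.3, 12.3 and 10.4 FPKM. With Acly it reached 93.7 ± 0.868 FPKM on day 4. The member that fell was Ptrf, which encodes cavin-1 of caveolae, from 295 ± 22.8 to 169 ± 6.31 FPKM. The 4 members too low to be tested were the leptin gene Lep, Pck1, Gpihbp1 and Gys2, and the first 3 were at the floor of 0.01 FPKM in all 6 Acly-/- libraries. In bulk RNA, fewer cells of a type and less RNA per cell cannot be told apart, which applies to every level given here.

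Triglyceride synthesis and lipid droplet genes rose in 21 of 26 tested (30 on the list) and fell in 3, with a median of 2.07. The change was called as lower without Acly in 18 members and higher in 2, beside 26.4% and 23.7% of all genes tested. Besides G0s2, Cidec and Plin1 above, Acsl1, which activates long-chain fatty acids, rose 9.67-fold to 45.4 ± 3.64 FPKM. The falls were in Lpin2, a phosphatidate phosphatase gene (-0.96), the fatty acid transporter gene Slc27a4 (-0.74) and the acyltransferase gene Agpat6 (-0.22, adjusted p = 0.0175), whose call ended without Acly-/- adipocyte library 2 (adjusted p = 0.0686). Of 21 brown and beige fat genes only 5 were expressed enough to be tested, and 3 of these were called as rises. Ppargc1b and Kcnk3 reached 1 FPKM only in day 4 libraries, Kcnk3 only in those of Aclyf/f cells. The filter thus favoured rises in both, and the count says little of the list. Ppargc1b (log2 fold change 0.94), Kcnk3 (0.82) and Esrra (0.45) rose, at day 4 levels of 1.16 ± 0.107, 0.867 ± 0.102 and 15.9 ± 1.36 FPKM.

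**Figure D2:**
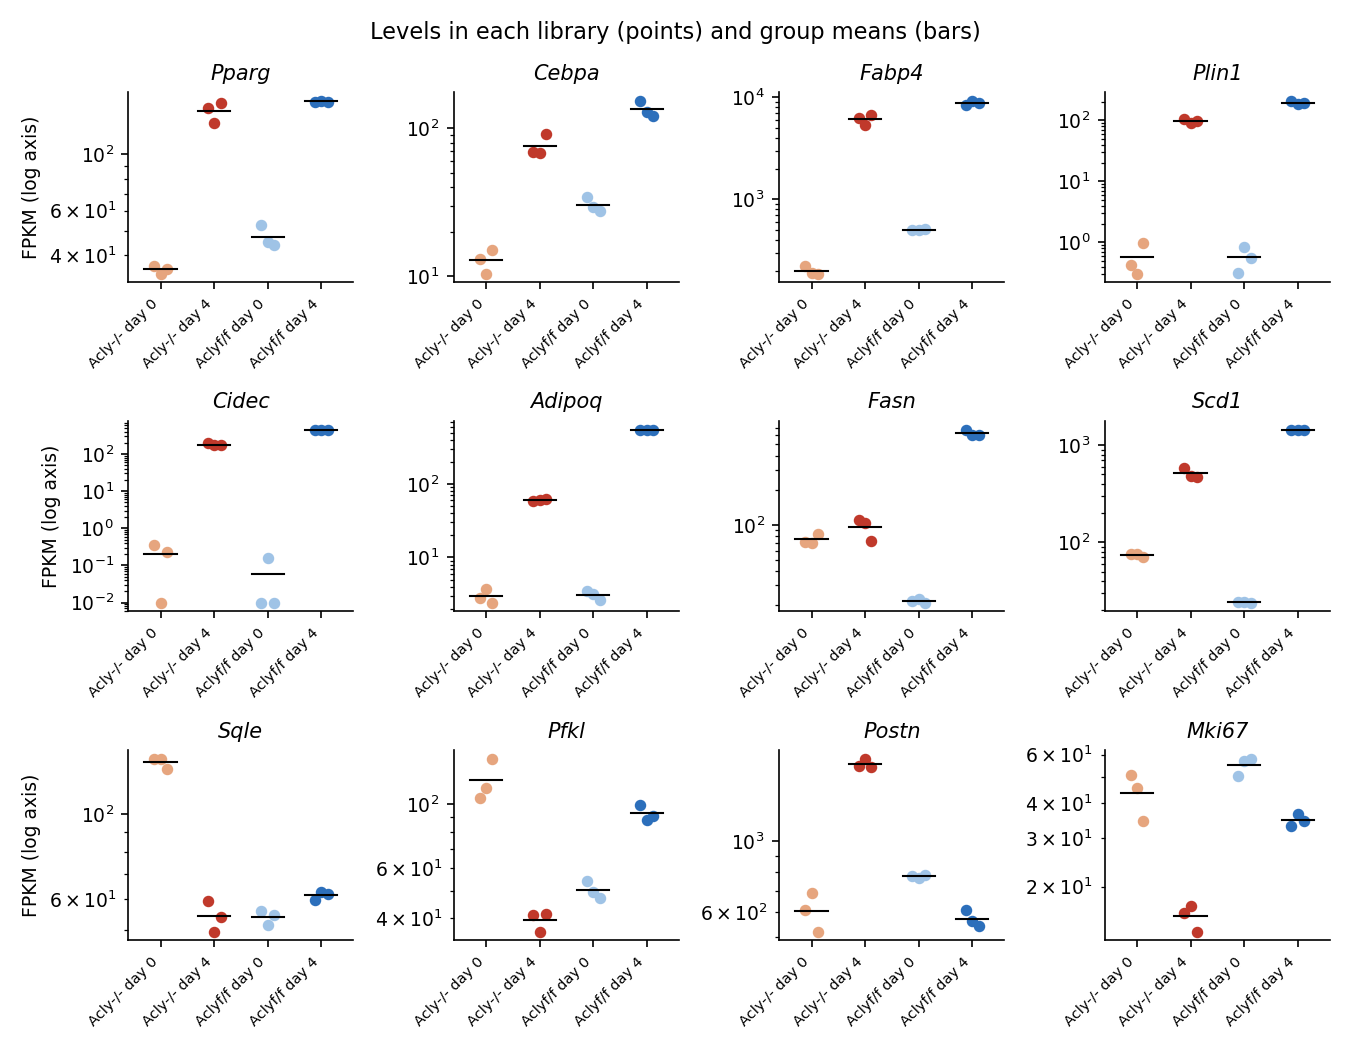
FPKM of 12 genes in each library (points, log axis) with group means (bars), in Acly-/- cells (orange on day 0, red on day 4) and Aclyf/f cells (light and dark blue). Pparg and Cebpa rise in both genotypes, Fasn lies between 70.0 and 110.2 FPKM over the 6 Acly-/- libraries, and Sqle, Pfkl and Mki67 are lower on day 4 than on day 0 without Acly.

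De novo lipogenesis and NADPH supply genes rose in 18 of 24 tested (26 on the list) and fell in 4, with a median of 0.70. Fasn (chromosome 11, 120805958 to 120824547), fatty acid synthase, read 71.5, 70.0 and 84.2 FPKM on day 0 and 110.2, 105 and 72.4 FPKM on day 4. The ranges overlap, and the call was borderline (log2 fold change 0.33 with SE 0.13, limma adjusted p = 0.0418, but 0.0936 with the replicate number as a block in Acly-/- libraries alone). It ended under 16 of 24 alternatives, among them without Acly-/- preadipocyte library 1 or 2 or Acly-/- adipocyte library 1 or 2 or Aclyf/f preadipocyte library 1 or 2 or Aclyf/f adipocyte library 2 or 3 (adjusted p = 0.0502 to 0.191). With Acly, Fasn went from 21.9 ± 0.706 to 627 ± 39.5 FPKM. The change without Acly was smaller by 4.45 on the log2 scale (SE 0.18, adjusted p = 1.51e-09), and the day 0 level in Acly-/- cells was the higher of the 2. Scd1, the main desaturase of fat, read 76.7, 76 and 71.4 FPKM and then 583, 477 and 472 FPKM, a clear 6.84-fold rise. Thrsp, a nuclear protein that promotes lipogenesis, rose from the floor region to 7.72 ± 0.963 FPKM. With Acly it reached 365 ± 50.5 FPKM on day 4 (difference in log2 fold change -5.40, SE 0.16). The falls were in the elongase Elovl6 (log2 fold change -1.67), the desaturases Fads2 (-1.14) and Fads1 (-0.61), and Acacb, the mitochondrial acetyl-CoA carboxylase gene (-0.36, adjusted p = 0.0107). The call of Acacb ended without Acly-/- preadipocyte library 3 (adjusted p = 0.0503). With Acly the same list rose in 23 and fell in 1 of 24 (median 2.62), where 72.5% of all genes were called. The change was called as lower without Acly in 20 members and higher in 1, beside 26.4% and 23.7% of all genes tested.

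Cholesterol synthesis genes and other SREBP2 targets fell in 14 of 24 tested (25 on the list) and rose in 4, with a median of -0.33. Sqle, squalene epoxidase, read 139.6, 139.9 and 131 FPKM on day 0 and 59.3, 49.5 and 54.1 FPKM on day 4. All 3 day 4 values lie below those of day 0, 2.52-fold lower on average (log2 fold change -1.32, SE 0.073, limma adjusted p = 3.06e-09). Hmgcs1, an early synthase of the pathway, was called narrowly (log2 fold change -0.29, adjusted p = 0.0397, and 0.0536 with the replicate block over all 12 libraries), and its call ended without Acly-/- preadipocyte library 1, 2 or 3 or Acly-/- adipocyte library 2 or 3 (adjusted p = 0.0645 to 0.138). The rises were in Insig1, which retains SREBPs in the endoplasmic reticulum (1.94-fold), in Sc5d (0.44 on the log2 scale), in Dhcr7 (0.44) and in Ebp (0.25), an isomerase gene named after its values were seen, whose call ended without Acly-/- preadipocyte library 1 or 2 or Acly-/- adipocyte library 1 or 3 (adjusted p = 0.0722 to 0.0912). In Aclyf/f cells 23 of the same 24 genes rose and 0 fell (median 1.43). The change was called as lower without Acly in all 24, beside 26.4% of all genes tested. Day 0 levels enter this difference. Sqle stood at 137 FPKM without and 54 with Acly on day 0, and at 54.3 and 61.5 FPKM on day 4.

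Of 23 glucose transport and glycolysis genes 12 fell and 7 rose (median -0.38). Pfkl, a phosphofructokinase subunit, read 105, 114 and 144 FPKM on day 0 and 41.2, 36 and 41.3 FPKM on day 4. Its level was 3.06-fold lower on day 4, with no overlap (log2 fold change -1.58, SE 0.11, limma adjusted p = 2.65e-08). Slc16a3, the lactate exporter gene, fell 8.94-fold to 1.49 ± 0.206 FPKM, and enolase, Eno1, fell 2.29-fold to 260.4 ± 15.4 FPKM. Apart from Slc2a4, the largest rises were in Pfkp, another phosphofructokinase (2.64-fold), and the transporter gene Slc2a3, which reached 1.78 ± 0.122 FPKM. With Acly 18 of the 23 genes rose and 2 fell (median 1.34). The change was called as lower without Acly in 21, beside 26.4% of all genes tested. Hypoxia-responsive genes, many of them HIF-1 targets, fell in 13 of 18 tested (19 on the list) and rose in 3 (median -0.49). Pdk1, the kinase that shuts pyruvate dehydrogenase, read 32.6, 38.1 and 31.3 FPKM and then 16.4, 13.9 and 16.7 FPKM. Ndrg1 fell 4.16-fold, and the vasodilator gene Adm and the collagen hydroxylase gene P4ha1 fell 2.91-fold and 2.41-fold. The rises were in Ero1l, an oxidase of the endoplasmic reticulum, from 65.7 ± 3.24 to 262 ± 45.3 FPKM, in Bnip3 (log2 fold change 0.45) and in Mxi1 (0.35).

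Mitochondrial oxidation genes rose nearly throughout. Of 29 genes of pyruvate entry and the TCA cycle 28 rose, and the 1 that fell was Pdk1 (median 0.83). Pcx (chromosome 19, 4510472 to 4621752), pyruvate carboxylase, which makes oxaloacetate in mitochondria, read 17.2, 14.8 and 19.8 FPKM on day 0 and 237, 228 and 210.3 FPKM on day 4. Every library of day 4 lay above those of day 0, and the rise was 13.1-fold (log2 fold change 3.64, SE 0.094, limma adjusted p = 1.64e-12). Pdhb, a pyruvate dehydrogenase subunit, rose 2.85-fold to 195 ± 9.78 FPKM, and the pyruvate carrier gene Mpc2 rose 2.59-fold. Branched-chain amino acid and ketone breakdown genes rose in 22 of 22 tested (23 on the list), with a median of 1.43. Bcat2, the mitochondrial transaminase that starts this breakdown, read 11.5, 13.3 and 14.1 FPKM and then 131, 125 and 134 FPKM, 10.1-fold higher. Aldh6a1, of the valine pathway, rose 16.7-fold to 119 ± 11.3 FPKM, and Dbt, a subunit of the branched-chain keto acid dehydrogenase, 5.15-fold.

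Respiratory chain subunit genes rose in 34 of 36 tested (37 on the list) by smaller amounts, with a median of 0.58. Uqcrc2 of complex III, cytochrome c, Cycs, and Ndufb9 of complex I rose 2.31-fold, 2.04-fold and 1.97-fold. Fatty acid oxidation genes rose in 20 of 23 tested (26 on the list), with a median of 0.68. The acyl-CoA dehydrogenase gene Acadm rose 2.42-fold, and the peroxisomal enzyme gene Ehhadh reached 3.04 ± 0.142 FPKM. The 2 falls were in the carnitine shuttle that brings fatty acids into mitochondria. Cpt1a read 23.5, 26.7 and 25.9 FPKM on day 0 and 8.52, 9.54 and 8.34 FPKM on day 4, 2.88-fold lower, and Slc25a20 fell by 0.42 on the log2 scale. Peroxisome genes rose in 15 of 20 and none was called as a fall by limma (median 0.61). Catalase, Cat, read 65.8, 62.1 and 57.3 FPKM and then 299.6, 259.6 and 278 FPKM, and the peroxisome division gene Pex11a and the import gene Pex16 rose 5.62-fold and 3.05-fold. The change was called as lower without Acly in 22 of 29 TCA cycle, 13 of 22 branched-chain, 23 of 36 respiratory chain, 15 of 23 oxidation and 12 of 20 peroxisome genes. Those counts stand beside 26.4% of all genes tested, and the medians with Acly were 1.41, 1.87, 1.17, 1.12 and 1.22.

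Insulin signalling genes moved both ways, with 10 rises and 6 falls among 18 tested (20 on the list, median 0.47). Tbc1d4, which links insulin to GLUT4 traffic, rose 9.27-fold, and Pde3b, through which insulin restrains lipolysis, rose 7.92-fold to 18.4 ± 0.0252 FPKM. Igfbp4, a binding protein of insulin-like growth factors, rose 5.68-fold to 101 ± 10.6 FPKM. Igf1r and Irs1, a growth factor receptor gene and the gene of an insulin receptor substrate, fell 3.43-fold and 1.9-fold, and Phldb2 fell 4.78-fold.

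Most matrix and contractile genes fell. Fibrillar and other collagen genes, with type IV left out, fell in 11 of 15 tested (17 on the list) and rose in 3, with a median of -1.19. Col1a1 (chromosome 11, 94936270 to 94951856), a chain of type I collagen, read 911, 996 and 1353 FPKM on day 0 and 154, 183 and 162 FPKM on day 4. The stages are well separated, and the mean fell 6.54-fold (log2 fold change -2.68, SE 0.17, limma adjusted p = 1.18e-08). Col1a2 fell 4.66-fold, whereas Col15a1, a collagen at the edge of basement membranes, rose 51.1-fold to 71.8 ± 8.48 FPKM. The other rises were Col5a3 (4.04-fold) and Col18a1 (3.5-fold). Among basement membrane genes 8 of 15 tested (21 on the list) rose and 5 fell (median 0.40). Col4a1 (chromosome 8, 11198423 to 11312826) and its neighbour Col4a2, the chains of type IV collagen, stood at 34.1 ± 3.31 and 23.8 ± 3.18 FPKM on day 0. They reached 293 ± 24.9 and 197 ± 12.5 FPKM on day 4, rises of 8.59-fold and 8.28-fold. The laminin gene Lamb3 reached 3.97 ± 0.106 FPKM from the floor region, while Lama5, Agrn and Lamb2 fell by 0.80, 0.64 and 0.64 on the log2 scale. The other falls, named after their values were seen, were Sparc (-0.33) and Nid1 (-0.21), whose call ended without Acly-/- preadipocyte library 1 or 2 or Acly-/- adipocyte library 3 (adjusted p = 0.073 to 0.119).

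Matrix enzymes and matricellular genes fell in 19 of 32 tested (37 on the list) and rose in 5, with a median of -0.82. Besides Thbs1 and Timp3, Wisp2, a member of the CCN family, fell 11.4-fold to 30.2 ± 2.91 FPKM. Periostin went the other way. Postn (chromosome 3, 54361107 to 54391041) read 607, 687 and 521 FPKM on day 0 and 1730.0, 1819 and 1711 FPKM on day 4, 2.9-fold higher, while in Aclyf/f cells it went from 777 ± 8.59 to 571 ± 35.7 FPKM. Its change differed between genotypes by 1.99 on the log2 scale (SE 0.13, limma adjusted p = 8.13e-08). The gelatinase gene Mmp2 read 28.2, 25.7 and 29.9 FPKM and then 43.4, 49.8 and 41.1 FPKM without Acly, and went from 70.8 ± 2.27 to 12.6 ± 2.54 FPKM with it (difference 3.08, adjusted p = 1.1e-08). The lysyl hydroxylase gene Plod1 (log2 fold change 0.47) and, named after their values were seen, the protease genes Mmp15 (0.40) and Adamts5 (0.30) also rose, the last with a call that ended without Acly-/- preadipocyte library 1 or Acly-/- adipocyte library 1 or 2 (adjusted p = 0.0671 to 0.0818). Contractile genes and targets of SRF and YAP fell in 18 of 24 tested (25 on the list) and rose in 3 (median -0.85). Tropomyosin, Tpm1, read 394, 389 and 333 FPKM and then 51.2, 53 and 54.3 FPKM, 7.04-fold lower. Ctgf, a YAP target, fell 6.59-fold, and Inhba, which encodes activin A, fell 15.9-fold. Among the rises were Mylk (log2 fold change 0.96) and Amotl2 (0.40).

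TGF-beta, BMP and Wnt genes fell in 16 of 22 tested (31 on the list) and rose in 2 (median -0.93). Sfrp1, a secreted Wnt antagonist, fell 15.1-fold to 1.92 ± 0.472 FPKM. The rises were in Fst, follistatin, which binds activin, from 0.406 ± 0.308 to 18.2 ± 1.54 FPKM, and in Tgfb2 (log2 fold change 0.39). Preadipocyte and progenitor markers fell in 9 of 11 tested (20 on the list), with a median of -1.22. Fibronectin, Fn1, read 2759.5, 3127 and 2775 FPKM on day 0 and 287, 338 and 228 FPKM on day 4, 10.2-fold lower, and Cd44 and the growth factor receptor gene Pdgfrb fell 3.75-fold and 3.01-fold. Compared with Aclyf/f cells, the change was called as higher, that is a smaller fall or a rise, in 25 of 32 matrix enzyme genes, 22 of 24 contractile genes, 15 of 22 signalling genes and 7 of 11 progenitor markers, beside 23.7% of all genes. The medians with Acly were -1.96, -2.16, -1.75 and -2.25.

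Cell cycle genes fell together. DNA replication genes fell in 32 of 35 and mitosis genes in 29 of 30, and limma called no rise in either list (medians -0.72 and -1.07). Mki67 (chromosome 7, 135689788 to 135716379), a marker of proliferating cells, read 50.6, 45.5 and 34.6 FPKM on day 0 and 16.1, 17 and 13.7 FPKM on day 4. The stages do not overlap and the mean fell 2.79-fold (log2 fold change -1.41, SE 0.12, limma adjusted p = 2.88e-07). Birc5, survivin, fell 2.98-fold, the kinesin gene Kif23 3.13-fold and the centromere motor gene Cenpe 2.89-fold. Of the replication genes, DNA ligase, Lig1, fell 2.95-fold, thymidine kinase, Tk1, 2.34-fold and the helicase subunit gene Mcm6 2.17-fold. With Acly the replication list had 8 rises and 11 falls (median -0.03) and the mitosis list 1 and 23 (median -0.41). The change was called as lower without Acly in 31 of 35 replication and 28 of 30 mitosis genes, beside 26.4% of all genes tested. Among genes listed as p53 targets 11 of 19 tested (20 on the list) rose (median 0.40). Whether p53 acted on them in these SV40-immortalised cells was not tested. Cdkn1a, the cyclin-dependent kinase inhibitor p21, read 129, 139 and 163 FPKM and then 296, 308 and 302 FPKM, 2.1-fold higher. The death genes Pmaip1, which encodes NOXA, and Bbc3, which encodes PUMA, rose 3.83-fold and 2.35-fold, and Trp53inp1 rose 3.23-fold. The 2 falls, in Mdm2, the gene of the p53 ubiquitin ligase, and in Plk2, were small (log2 fold change -0.25 and -0.22). That of Mdm2 was not called with libraries rescaled to the same FPKM sum (adjusted p = 0.0853). That of Plk2 was not called with the replicate block in Acly-/- libraries alone (adjusted p = 0.0847), nor without Acly-/- preadipocyte library 1 or 3 or Acly-/- adipocyte library 2 or 3 (adjusted p = 0.0508 to 0.18).

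Promoters of these mitosis genes were searched for the cell cycle homology region, TTTGAA on either strand, through which the DREAM and MuvB complexes are known to act. Promoters were taken from RefSeq (GRCm38.p6) as 250 bases before to 50 after the start site, and 24 of the 30 mitosis genes matched by symbol, with 26 promoters. A match was found in 19 of these (73.1%), in 4 of 32 promoters of DNA replication genes (12.5%) and in 17.9% of all 32851 promoters. The promoters of Mki67 and Kif23 are shown because they are named mitosis genes with a match. Each window runs from 170 bases before to 30 bases from the start site, 5′ to 3′ on the gene's strand, with the matches in capitals.
Mki67 (chr7:135716350-135716549, minus strand): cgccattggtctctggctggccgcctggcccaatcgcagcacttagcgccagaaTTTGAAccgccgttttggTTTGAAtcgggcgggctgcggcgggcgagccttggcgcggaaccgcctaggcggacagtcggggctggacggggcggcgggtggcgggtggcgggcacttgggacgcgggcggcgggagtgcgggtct
Kif23 (chr9:61946770-61946969, minus strand): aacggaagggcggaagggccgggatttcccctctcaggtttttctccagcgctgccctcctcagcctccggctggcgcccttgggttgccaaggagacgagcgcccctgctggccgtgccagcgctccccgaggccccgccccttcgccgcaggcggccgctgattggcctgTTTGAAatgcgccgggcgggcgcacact
In Mki67 the first bases of the matches lie at -116 and -98 from the start site, and in Kif23 at 3. A match is a description of the sequence and was not tested as a binding site. Whether DREAM or MuvB acted in these SV40-immortalised cells was not tested either. Other motifs were also searched in every list. The CCAAT box was in 80.8% of mitosis promoters and 37.4% of all. Its share was 94.1% in the unfolded protein response list, 80% in the cholesterol list and 23.1% in the mature adipocyte list. The C/EBP palindrome was in 0 of 33 adipogenic factor promoters, 0 of 26 mature adipocyte promoters and 2.08% of all. The PPAR direct repeat was in 0 of 26 mature adipocyte promoters and 0.0396% of all. With shares this low among all promoters, these counts of 0 say little about the lists. The sterol response element was in 1 of 20 cholesterol promoters and 1.24% of all.

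**Figure D3:**
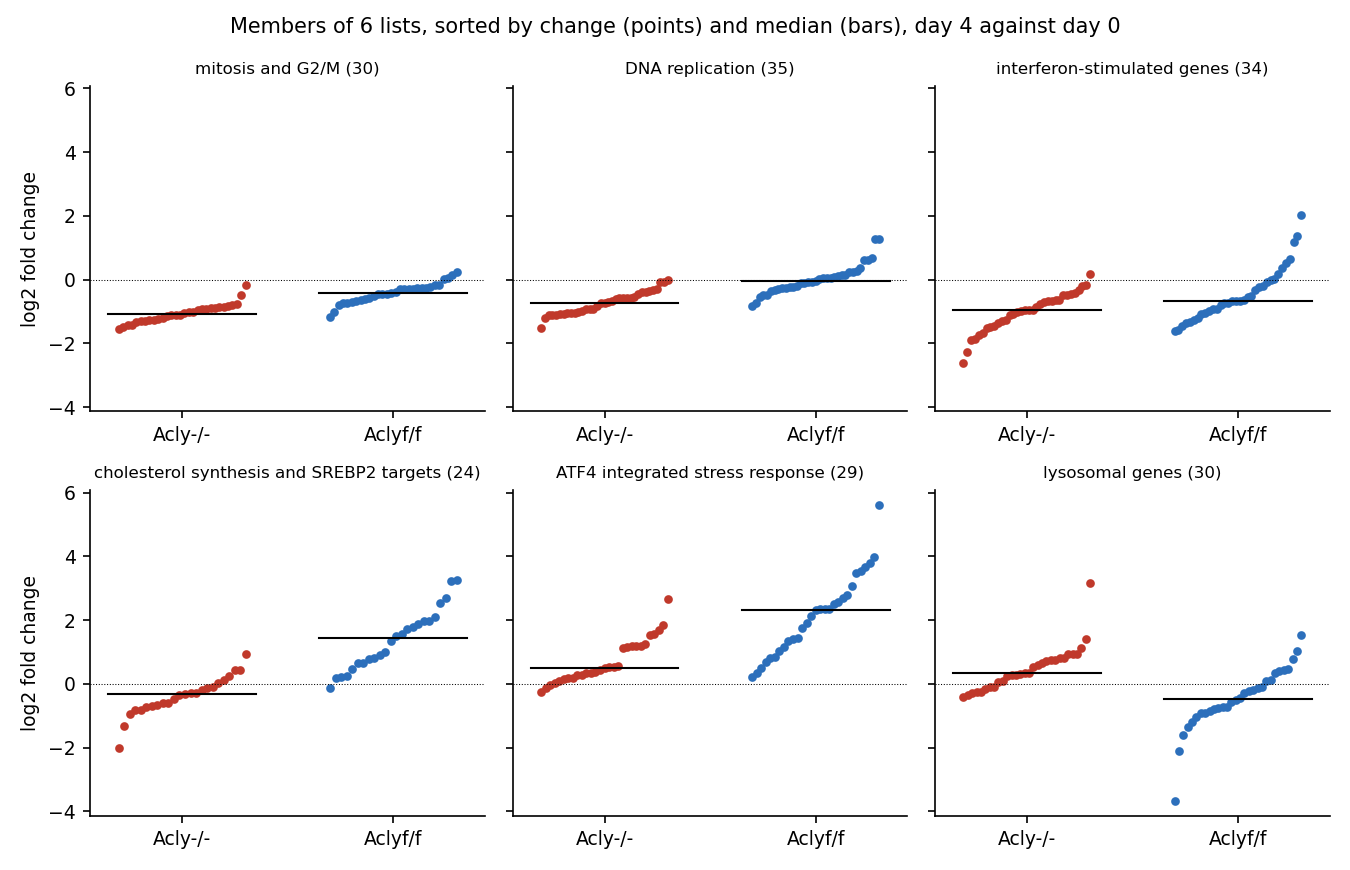
Log2 fold change from day 0 to day 4 (vertical axis) of each tested member of 6 lists, sorted (points), with the median (bars), in Acly-/- (red) and Aclyf/f (blue) cells. Mitosis genes sit at a median of -1.07 without Acly and -0.41 with it, and cholesterol genes at -0.33 and 1.43.

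Genes of the ATF4 integrated stress response, which answers amino acid shortage and other stresses, rose in 20 of 29 tested (30 on the list) and fell in 1, with a median of 0.50. Trib3, a pseudokinase gene induced by ATF4, read 38.3, 39.2 and 61.3 FPKM on day 0 and 121, 97.9 and 95 FPKM on day 4. All day 4 libraries lay above those of day 0, 2.26-fold on average (log2 fold change 1.18, SE 0.16, limma adjusted p = 1.91e-05). With Acly it went from 1.84 ± 0.375 to 137 ± 5.54 FPKM, and the rise without Acly was smaller by 4.43 on the log2 scale (SE 0.22, adjusted p = 7.45e-09), from a higher day 0 level. Ddit3, the gene of the stress factor CHOP, rose 3.57-fold from 67.3 ± 18.2 to 240.2 ± 14.3 FPKM. Vldlr, a lipoprotein receptor gene, rose 7.03-fold, and the hormone gene Fgf21 reached 2.36 ± 0.304 FPKM. Atf4 itself read 311, 313 and 363 FPKM and then 427, 394 and 443 FPKM, a small rise (log2 fold change 0.36, adjusted p = 0.000941). The fall, in the arginine transporter gene Slc7a1 (-0.25, adjusted p = 0.0365), was not called with the replicate block (0.0561 in Acly-/- libraries alone), nor without Acly-/- preadipocyte library 1 or 3 or Acly-/- adipocyte library 3 (adjusted p = 0.067 to 0.172). With Acly the list rose in 28 (median 2.31). The change was called as lower without Acly in 25 of 29, beside 26.4% of all genes tested.

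Aminoacyl-tRNA synthetase genes, several of which ATF4 is known to induce, rose in 11 of 20 and fell in 1 (median 0.31). Farsb, Eprs and Dars rose 1.99-fold, 1.68-fold and 1.52-fold, and Kars fell by 0.29 on the log2 scale. The C/EBP-ATF response element, searched as TGATGNAA on both strands, was found in 9 of 31 promoters of the stress response list (29%), in 5 of 12 of the synthetase list (41.7%) and in 3.97% of all promoters. Trib3 and Fgf21, named members with a match, are shown as above, and both matches are on the other strand.
Trib3 (chr2:152344031-152344230, minus strand): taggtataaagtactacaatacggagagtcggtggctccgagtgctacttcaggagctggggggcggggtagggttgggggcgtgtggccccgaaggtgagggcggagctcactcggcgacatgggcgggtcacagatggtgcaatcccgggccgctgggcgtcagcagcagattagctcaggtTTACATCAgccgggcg
Fgf21 (chr7:45615461-45615660, minus strand): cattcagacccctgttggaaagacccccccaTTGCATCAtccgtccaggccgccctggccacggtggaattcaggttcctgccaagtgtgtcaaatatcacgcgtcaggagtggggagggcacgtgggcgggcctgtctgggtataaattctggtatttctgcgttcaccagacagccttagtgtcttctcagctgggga
The match begins at 15 in Trib3 and at -139 in Fgf21. Genes of the endoplasmic reticulum unfolded protein response rose in 6 and fell in 3 of 21, with a median of 0.02 whose sign changed after quantile normalization, under 2 rescalings and without Acly-/- adipocyte library 3 (range over alternatives -0.061 to 0.041). Xbp1, a factor of that response, went from 42 ± 1.54 to 72.5 ± 1.5 FPKM, Dnajb9 rose 1.87-fold and Atf6 1.67-fold. The falls were in the secreted factor gene Manf (-0.47), the disulfide isomerase gene Pdia3 (-0.37) and the chaperone gene Canx (-0.20, adjusted p = 0.0378). That of Canx was not called with the replicate block (0.084 in Acly-/- libraries alone), nor without Acly-/- preadipocyte library 1 or 2 or Acly-/- adipocyte library 1 or 2 or Aclyf/f adipocyte library 2 (adjusted p = 0.0515 to 0.153).

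Interferon-stimulated genes fell in 28 of 34, and limma called no rise (median -0.96). Zbp1, a sensor of unusual nucleic acids, read 68.1, 120.5 and 108 FPKM on day 0 and 16.2, 15.2 and 13.4 FPKM on day 4, 6.62-fold lower. The antiviral gene Mx1 read 29.4, 39.5 and 30.4 FPKM and then 6.27, 7.41 and 4.57 FPKM, 5.44-fold lower. Gbp2 (chromosome 3, 142620663 to 142638008), a guanylate-binding protein gene, fell 3.81-fold from 152 ± 29.3 to 39.9 ± 0.923 FPKM, with no overlap between stages for these 3 genes. Irf7, the factor that amplifies interferon production, read 164, 234 and 251 FPKM and then 138, 133 and 119.8 FPKM (log2 fold change -0.71, SE 0.17, limma adjusted p = 0.00231). In Aclyf/f cells the day 0 levels were lower, at 8.26 ± 2.0 FPKM for Zbp1, 2.15 ± 0.517 for Mx1, 34.9 ± 1.49 for Gbp2 and 25.1 ± 2.04 for Irf7. The list fell there in 22 and rose in 6 (median -0.66). The change was called as lower without Acly in 18 of 34, beside 26.4% of all genes tested. The interferon-stimulated response element, searched on both strands as the GAAA repeat with a spacer of 2 bases, was found in 13 of 28 promoters of the list (46.4%) and in 3.44% of all promoters. Gbp2 is the named member with a match, which begins at -59, on the other strand.
Gbp2 (chr3:142620493-142620692, plus strand): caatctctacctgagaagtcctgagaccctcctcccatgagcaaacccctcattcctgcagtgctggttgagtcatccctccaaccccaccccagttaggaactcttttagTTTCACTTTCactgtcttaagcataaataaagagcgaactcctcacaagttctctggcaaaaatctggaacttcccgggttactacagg

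Inflammatory cytokine genes and NF-kappaB targets fell in 11 of 17 tested (25 on the list) and rose in 4 (median -0.56). Ccl2, the monocyte chemoattractant, read 246, 249 and 236 FPKM on day 0 and 12.7, 9.91 and 14.9 FPKM on day 4, 19.5-fold lower, and its relative Ccl7 fell 9.0-fold. Cxcl12 fell 15.1-fold from 388 ± 40.1 FPKM. The acute-phase genes Saa3 and Lcn2 went the other way, from 0.204 ± 0.177 and 0.117 ± 0.101 FPKM to 20.4 ± 2.37 and 20.8 ± 2.91 FPKM. Smaller rises were called in Nfkbia, the NF-kappaB inhibitor gene (1.75-fold), and in Relb, an NF-kappaB subunit gene named after its values were seen (log2 fold change 0.37, adjusted p = 0.0348). The call of Relb ended with the replicate block over all 12 libraries (0.055) and without Acly-/- preadipocyte library 1 or 2 or Acly-/- adipocyte library 2 or 3 (adjusted p = 0.0786 to 0.148). With Acly the chemokine genes ended lower, at 1.37 ± 0.276 FPKM for Ccl2 and 10.9 ± 2.33 for Cxcl12. Their falls were called as smaller without Acly, by 2.44 (SE 0.17, adjusted p = 1.1e-07) and 3.27 (SE 0.18, adjusted p = 1.94e-08) on the log2 scale.

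Lysosomal genes rose in 20 of 30 tested (32 on the list) and fell in 5, with a median of 0.34. Cathepsin D, Ctsd (chromosome 7, 142375916 to 142387870), read 184, 196 and 232 FPKM on day 0 and 543, 534 and 545 FPKM on day 4, 2.65-fold higher (log2 fold change 1.41, SE 0.084, limma adjusted p = 7.77e-09). Cd68, a lysosomal membrane protein gene abundant in macrophages, read 3.44, 2.01 and 2.8 FPKM and then 34.4, 29 and 34.4 FPKM. The proton pump subunit gene Atp6v1h rose 2.19-fold. Among the falls were Glb1, a beta-galactosidase gene (log2 fold change -0.42), the ceramidase gene Asah1 (-0.36) and the acid lipase gene Lipa (-0.29), and, named after its values were seen, Tfe3 (-0.24). The call of Tfe3 ended with the replicate block in Acly-/- libraries alone (adjusted p = 0.0702) and without Acly-/- preadipocyte library 3 or Acly-/- adipocyte library 3 (adjusted p = 0.0695 to 0.0749). In Aclyf/f cells 7 of these genes rose and 18 fell (median -0.46). The change was called as higher without Acly in 25 of 30, where 23.7% of all genes tested were.

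NRF2 targets and glutathione genes gave 14 rises and 9 falls among 25 (median 0.35). The peroxidase gene Prdx6 rose 5.09-fold to 249 ± 3.43 FPKM and Mgst3, a membrane glutathione transferase, 4.24-fold, while the secreted peroxidase gene Gpx3 fell 2.69-fold from 2374 ± 148 FPKM. Thioredoxin reductase, Txnrd1, fell 1.73-fold. Histone acetyltransferase, deacetylase and reader genes fell in 13 and rose in 6 of 28 tested (29 on the list, median -0.24). Ncoa1, a coactivator of nuclear receptors, rose 3.51-fold, and the deacetylase gene Hdac1 and the acetyltransferase genes Kat2b and Crebbp fell 1.72-fold, 1.67-fold and 1.69-fold. Ribosome biogenesis genes rose in 12 and fell in 3 of 25 (median 0.17). Gnl3, nucleostemin, rose 1.86-fold and Rcl1 2.15-fold, and nucleophosmin, Npm1, fell 1.41-fold. The other falls, in Nop56 (-0.27) and Wdr43 (-0.20), were small. The call of Nop56 ended without Acly-/- preadipocyte library 1 or Acly-/- adipocyte library 2 (adjusted p = 0.0566 to 0.0969). The call of Wdr43 ended with the replicate block (adjusted p = 0.0934 in Acly-/- libraries alone) and without Acly-/- preadipocyte library 1 or 2 or Acly-/- adipocyte library 2 or 3 or Aclyf/f preadipocyte library 1, 2 or 3 or Aclyf/f adipocyte library 2 or 3 (adjusted p = 0.0546 to 0.185).

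Markers of other cell types differed widely in level, and their part in the results above was not tested. Of 13 markers of macrophages and leukocytes 2 were tested, Cd68 as above and Cd14, which fell by 0.81 on the log2 scale. The defining genes Ptprc, Itgam, Cd3e and Tyrobp were at the floor of 0.01 FPKM in all 6 Acly-/- libraries. The summed level of this list ran from 5.08 to 7.77 FPKM on day 0 and from 30.6 to 36.4 on day 4. The day 4 sums were set mostly by Cd68, which is also counted with the lysosomal genes. For endothelium, 1 of 9 was tested, Kdr, which fell (-0.52), with sums of 1.14 to 1.72 and then 0.424 to 0.681 FPKM and Cdh5, Tie1, Cldn5 and Erg at the floor in both group means. For mesothelium and epithelium 1 of 9 was tested, with sums of 4.19 to 6.43 and then 0.696 to 1.19 FPKM, set mostly by Krt19. With Acly the day 4 sums reached at most 0.251 FPKM for endothelium and 0.718 FPKM for mesothelium and epithelium. In neither list could a gene pass the filter through day 4 libraries alone. That favours calls as falls, so the fall of Kdr and the counts of both lists say little. Skeletal muscle structural genes rose in 3 of 3 tested (10 on the list), Acta1 to 3.86 ± 0.317, Actn3 to 3.27 ± 0.595 and Des to 1.46 ± 0.403 FPKM. The regulators Myod1, Myog and Myf5 stayed at the floor, and the list's sums went from 0.77 to 1.14 up to 8.48 to 8.8 FPKM. At such day 0 sums the 3 tested genes could not pass the filter through Acly-/- day 0 libraries alone. That favours calls as rises, so the count of this list says little. Smooth muscle and pericyte markers gave 2 rises (Myh11, to 3.14 ± 0.355 FPKM, and Mcam, to 1.07 ± 0.0633) and 2 falls (Smtn and Actg2) among 5 tested of 9, with sums of 14.6 to 16.8 and 11.4 to 13.8 FPKM. Bone and cartilage markers fell in 4 of 5 tested (10 on the list), Spp1 and Sox9 above, Sp7 (-1.35) and Runx2 (-0.31, named after its values were seen), and Alpl rose (0.55). Their sums went from 198 to 226 down to 27.9 to 32.8 FPKM.

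**Figure D4:**
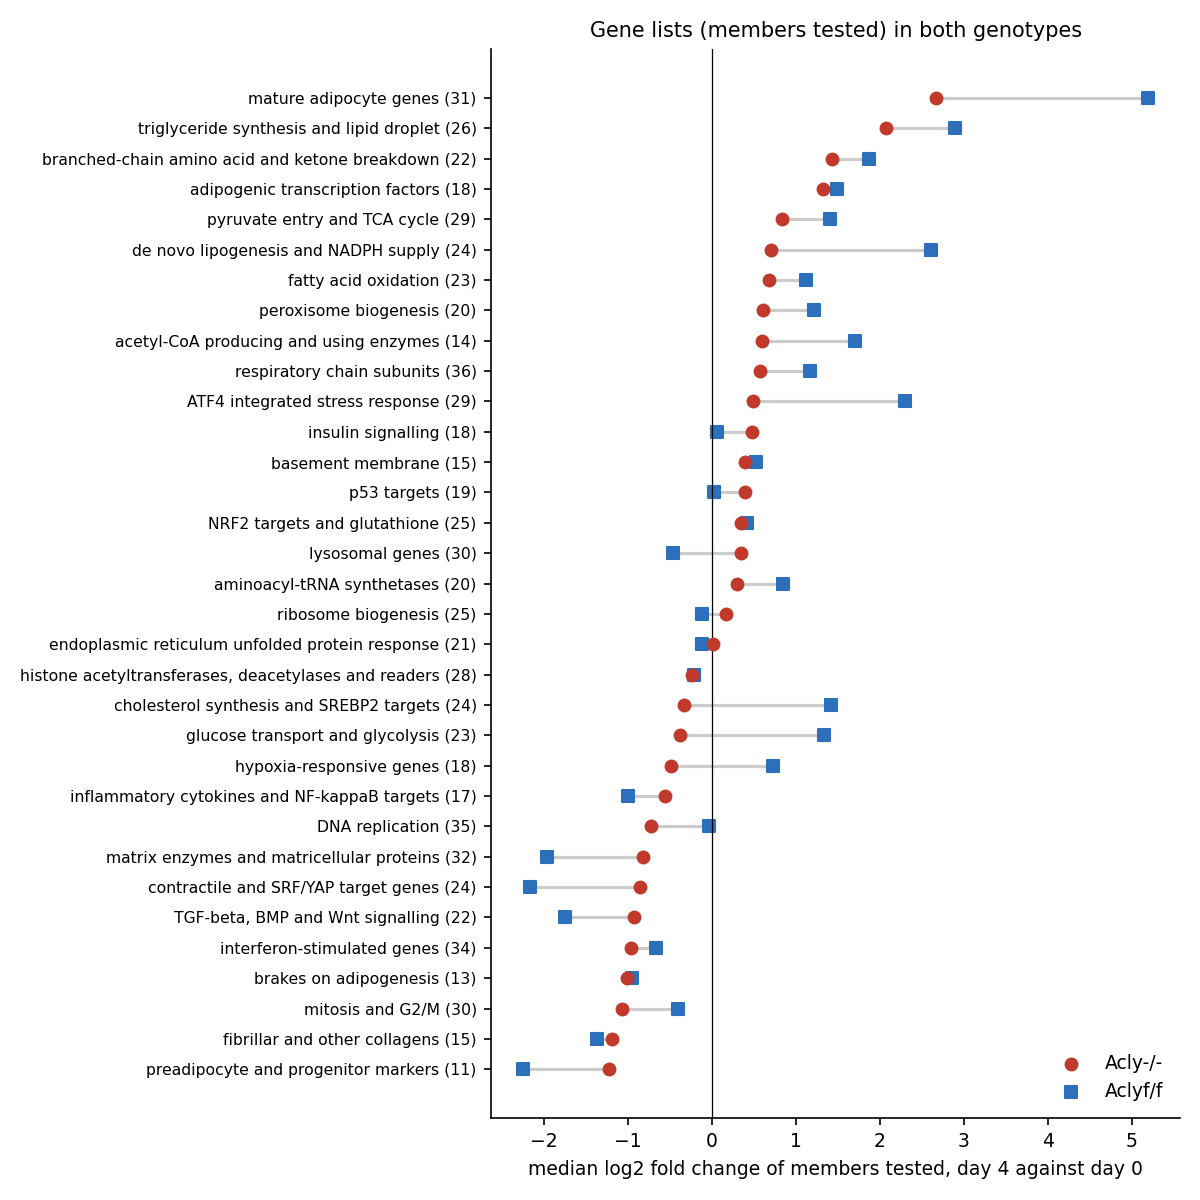
Median log2 fold change from day 0 to day 4 over the tested members of each gene list (number in brackets), for Acly-/- (red circles) and Aclyf/f cells (blue squares). Mature adipocyte genes have the highest median in both, 2.67 and 5.20, and cholesterol, glycolysis and hypoxia lists lie below 0 without Acly and above 0 with it.

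The second comparison asked where the differentiation change differs between genotypes, by the test of the difference itself. Of 11777 genes 5908 were called (50.2%), with the change higher without Acly in 2795 (23.7%) and lower in 3113 (26.4%). Of all rises without Acly 2652 were also rises with it, 74% of those without and 61.7% of the 4301 with Acly. For falls the shared number was 2602, 71.3% of those without and 61.4% of the 4236 with Acly. Of the 727 genes that rose by at least 1 on the log2 scale without Acly, 652 were also called as rises with it, 49 had no call and 26 fell. Of the 808 that fell by at least 1 without Acly, 729 were also called as falls with it, 61 had no call and 18 rose. Seen from the other side, 1510 genes rose by at least 1 with Acly and 1245 of these were called as rises without it.

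In 575 genes (4.88%) the calls had opposite signs and the difference was called, and 12 of them (0.102%) moved by at least 1 in both genotypes. Selenoprotein P, Sepp1 (chromosome 15, 3270767 to 3280508), which carries selenium in plasma, had the largest difference among those that rose by at least 1 without Acly. It read 197, 199 and 182 FPKM on day 0 and 1094, 1162 and 1130.1 FPKM on day 4 without Acly, and 390.1, 436 and 498 FPKM and then 259, 286 and 279 FPKM with it. The stages separate in both genotypes in opposite directions (2.55 without and -0.68 with Acly, difference SE 0.12, limma adjusted p = 9.46e-10). Maoa, a monoamine oxidase gene, and Maf, a transcription factor gene, rose 2.24-fold and 2.86-fold without Acly and fell 2.37-fold and 1.91-fold with it. The small GTPase gene Gem rose 8.89-fold and fell 1.41-fold with Acly. The extracellular protein genes Islr and Olfml2b rose 2.29-fold and 2.21-fold, and fell 2.97-fold and 2.47-fold with Acly. Complement C4b, which has a near-identical copy and is uncertain for that reason, rose 2.22-fold and fell 2.2-fold with Acly. Ass1, of the urea and arginine pathway, read 5.71, 3.36 and 8.23 FPKM and then 16.1, 15.4 and 18.3 FPKM, and went from 6.65 ± 1.3 to 2.24 ± 1.93 FPKM with Acly. Its call without Acly (adjusted p = 0.0113) ended without Acly-/- preadipocyte library 2 (adjusted p = 0.0563) and with a pseudocount of 0.1 (0.162).

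The opposite pattern, a fall without Acly and a rise with it, was led by Pdk1, described above, which went from 14.4 ± 0.911 to 52.5 ± 4.53 FPKM with Acly (difference -2.86, SE 0.14, limma adjusted p = 5.1e-09). The mitochondrial adenylate kinase gene Ak4 went from 12.6 ± 0.78 to 4.93 ± 0.514 FPKM without Acly and from 5.51 ± 0.254 to 15.1 ± 0.959 FPKM with it. Ndrg1, Pfkl and Fads2, named above, showed the same signs, with rises of 0.79, 0.88 and 1.06 on the log2 scale with Acly. The other 3 are interferon-inducible genes, the nuclease gene Isg20, the ISG15-activating enzyme gene Uba7 and the ADP-ribosyltransferase gene Parp10. They fell 2.63-fold, 3.46-fold and 2.22-fold without Acly and rose 2.69-fold, 1.57-fold and 1.94-fold with it. All 3 stood higher on day 0 without Acly, at 35.8, 50.3 and 61.1 FPKM against 8.03, 6.36 and 15.2 FPKM with it.

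Some genes moved the same way in both genotypes but further without Acly. Apolipoprotein E, Apoe (chromosome 7, 19696244 to 19699188), read 2.53, 2.68 and 3.02 FPKM on day 0 and 147, 168 and 166 FPKM on day 4, 58.5-fold higher, and rose 7.1-fold with Acly. The day 0 means were 2.74 FPKM without and 16.8 FPKM with Acly, and those of day 4 160.5 and 119.6 FPKM. Lbp, which binds bacterial lipopolysaccharide, Tmem158 and the receptor partner gene Ramp2 ended at 18.4 ± 1.02, 58.4 ± 8.85 and 21.6 ± 3.15 FPKM without Acly, against 12.2 ± 0.994, 12.5 ± 4.49 and 11.9 ± 2.3 FPKM with it. Saa3 and Cebpd, given above, belong to this set. Larger falls without Acly were led by the water channel gene Aqp1, from 10.4 ± 1.54 to 0.196 ± 0.178 FPKM, which was at 0.959 ± 0.189 FPKM on day 0 with Acly. Fxyd5, a regulator of the sodium pump, the ISG15-conjugating enzyme gene Ube2l6 and Sybu fell 5.75-fold, 6.18-fold and 7.98-fold without Acly and 1.34-fold, 2.12-fold and 1.86-fold with it. The olfactory receptor locus Olfr56, from 7.31 ± 1.64 to 0.799 ± 0.253 FPKM, and Timp3 complete the set. With Acly Timp3 went from 11.6 ± 1.07 to 0.267 ± 0.113 FPKM, low levels at which log2(FPKM + 1) shows less change. With a pseudocount of 0.1 the difference of Timp3 was no longer called (adjusted p = 0.141).

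**Figure D5:**
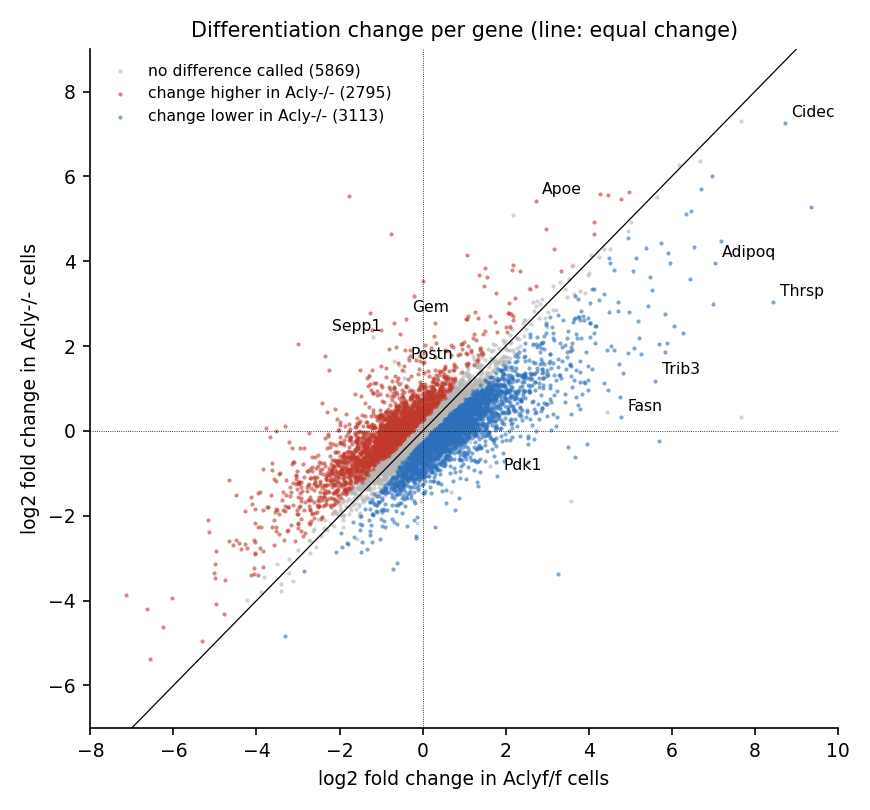
Log2 fold change from day 0 to day 4 in Acly-/- cells (vertical axis) against that in Aclyf/f cells (horizontal axis), 1 point per gene tested, with genes called in the test of the difference in red (2795, higher without Acly) and blue (3113, lower). Fasn and Trib3 lie far below the line of equal change, and Apoe, Sepp1 and Postn above it.

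The most abundant messages of Acly-/- adipocytes, by mean FPKM, which is a level per length, and leaving out predicted and small RNAs, were ferritin, fatty acid binding and translation genes. Ferritin light chain, Ftl1, stood first at 7154 ± 185 FPKM, followed by the heavy chain, Fth1, at 6131 ± 246 and Fabp4 at 6113 ± 702. The libraries of Fth1 and Fabp4 overlap, so their order is not set. Both ferritin genes rose, 2.46-fold and 2.41-fold. Gelsolin, Gsn, which severs actin filaments, read 346, 353 and 432 FPKM on day 0 and 4085, 4199 and 3792 FPKM on day 4, 10.7-fold higher. Beta-2 microglobulin, B2m, rose 1.81-fold to 3962 ± 267 FPKM, in contrast to the interferon-stimulated genes above. No change was called in Eef1a1, Tpt1, Rps12, Rpl41 and Rplp1, with log2 fold changes between -0.32 and 0.05. The sign turned for Tpt1 after quantile normalization and for Rps12 without Acly-/- preadipocyte library 3. Rplp1 was called without Acly-/- preadipocyte library 1 (adjusted p = 0.0419) and under 3 scalings, and Eef1a1 after quantile normalization (9.91e-06). Ferritin, ribosomal and elongation factor genes have many near-identical copies in the genome, so their levels are uncertain.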

How the data were processed

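RNA was sequenced in 12 libraries of 4 groups, prepared by Illumina TruSeq, per the labels' protocols. The authors deposited 1 table of FPKM for 24341 genes, with a floor of 0.01 and mm10 coordinates, made with Cufflinks 2.2.1, Bowtie2 2.2.6 and bcl2fastq per the submitters' processing notes. Start positions in the table are given here raised by 1. Relative depth came from the steps of low values and is approximate. The fit used limma (version 3.58.1, R 4.3.3) on log2(FPKM + 1), with a mean for each of the 4 groups and a variance trend, after a filter of at least 1 FPKM in at least 3 libraries, and p-values were adjusted by Benjamini-Hochberg over 11777 genes. Contrasts were day 4 minus day 0 in each genotype and the difference between those changes. Python 3.11.15 with pandas 2.3.3 and matplotlib 3.10.9 made tables and plots. On simulated data for this comparison (11777 genes, 200 of them changed), 87% of 1.5-fold and 97% of 2-fold changes were recovered and 4.66% of calls were false. The changed genes were drawn from better expressed ones. All groups otherwise shared the same means, with independent normal noise. In the data 61.4% of genes were called, so these rates may not hold for the reported calls. Labels give the groups the same replicate numbers. Deviations of same-numbered Acly-/- libraries from their group means correlated at 0.123, 0.147 and 0.124, all above 0.1, so these numbers were taken to pair the samples, from the data and not from the labels. The pairing is weak: over all groups same-numbered libraries had a median correlation of -0.0789 (lowest -0.414), and different-numbered libraries reached 0.416. A fit with the number as a block is given where it changes a call.

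Members and gene lists were chosen with earlier results of these data known. Genes are named by a rule: the 12 largest rises and falls among called genes with non-overlapping stages and at least 5 FPKM, up to 3 called rises and 3 called falls per list, 21 fixed genes, the genes with opposite or larger change than in Aclyf/f cells (8 and 6 a side) and the 10 most abundant. Predicted genes and symbols of microRNAs and of several kinds of small nuclear, nucleolar and cytoplasmic RNA were left out of the rule. A few members of the lists that the rule or a count would name are not reported here. Alternatives covered the pseudocount, filter, scaling, block, libraries in the fit, variance trend and each library left out.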

Additional observations from a re-analysis of the deposited data

Results flagged for a closer look

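Each gene here was marked because its change from day 0 to day 4 differed between the genotypes by the test of the difference (limma, Benjamini-Hochberg adjusted p from 9.46e-10 to 0.00161, n = 3 libraries a group). Values are the log2 fold change in Acly-/- cells minus that in Aclyf/f cells, and the levels behind most of them are given above. No cause of any of these differences was tested.

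Among genes that rose without Acly and fell with it, the difference was 3.22 for Sepp1, 3.04 for Gem, 2.94 for Ass1, 2.39 for Islr, 2.37 for Maf, 2.36 for Olfml2b, 2.30 for Maoa, 2.24 for C4b, 3.08 for Mmp2 and 1.99 for Postn. Among genes that fell without Acly and rose with it, it was -2.86 for Pdk1, -2.65 for Ndrg1, -2.63 for Isg20, -2.50 for Ak4, -2.46 for Pfkl, -2.27 for Uba7, -2.20 for Fads2 and -2.01 for Parp10.

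Genes that rose in both genotypes and further without Acly had differences of 3.08 for Saa3, 2.70 for Apoe, 2.34 for Lbp, 2.33 for Cebpd, 2.09 for Tmem158 and 1.93 for Ramp2. Genes that fell in both and further without Acly had -2.54 for Aqp1, -1.86 for Fxyd5, -1.59 for Olfr56, -1.52 for Ube2l6, -1.51 for Timp3 and -1.48 for Sybu. The difference of Timp3 was not called with a pseudocount of 0.1. Olfr56 lies among interferon-inducible genes, and the source of its fragments was not tested.

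Smaller rises without Acly gave -4.45 for Fasn, -4.43 for Trib3 and -3.08 for Adipoq, and smaller falls without Acly gave 3.27 for Cxcl12 and 2.44 for Ccl2.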

How the results depend on the processing

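Over 24 alternatives, 1 of them chosen after seeing the data, the counts over all genes tested stayed within 1.5 times their reported values. Within lists, counts of falls moved further: p53 targets from 2 to between 1 and 4, ribosome biogenesis from 3 to between 1 and 5, acetyl-CoA enzymes from 3 to between 1 and 4, ATF4 targets from 1 to 0, and respiratory chain and brown fat genes from 0 to 1. Calls without Acly ran from 6085 (filter of 5 FPKM) to 7781 (no filter), and from 6567 to 7374 with 1 library left out. Changes of at least 1 on the log2 scale ran from 1303 to 2150, the latter with a pseudocount of 0.1, and genotype differences from 4974 to 6030. With the replicate block in Acly-/- libraries alone, the added alternative, 7010 genes were called, 6764 of them among the 7232, and 6923 were called there with no block. Of 238 named genes tested, 215 kept their direction and side of the threshold under all alternatives that tested them. So did 35 of 37 differences between genotypes, the exceptions being Pparg and Timp3. Calls ended with libraries rescaled to the same FPKM sum in Mdm2, Plk2, Wdr43, Slc7a1, Canx, Hmgcs1 and Nid1 (adjusted p = 0.0853 to 0.193), with Acly-/- libraries only in Plk2, Wdr43, Slc7a1, Canx, Fasn, Ebp, Relb, Nid1 and Tfe3 (0.0502 to 0.107), with no filter in Twist2, Hmgcs1, Fasn and Relb (0.0641 to 0.0798), with no variance trend in Wdr43, Canx and Fasn (0.0505 to 0.053), with short RNAs left out in Wdr43, Fasn and Adamts5 (0.0512 to 0.0535), and with a pseudocount of 0.1 in Ass1 (0.162). The block changed no named call besides those given above. Directions turned only in changes that were not called: Acly (-0.0219 without Acly-/- adipocyte replicate 1 and -0.0026 without replicate 2, up to 0.099 without replicate 3), Tpt1 (-0.15 after quantile normalization) and Rps12 (0.0498 without Acly-/- preadipocyte replicate 3, down to -0.22 without replicate 2). The cause of these turns was not tested. List counts and medians were not taken under the filter alternatives. Under the others only the median of the unfolded protein response changed sign. Depth limits genes under 0.3 FPKM, whose group values rest on few fragments.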
